A study of Rattus norvegicus with 36 samples.

Results

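The genes described here encode proteins of the ubiquitin-proteasome system, the calpains and the cathepsins in rat skeletal muscle. They were chosen by name, as probe sets whose single platform gene symbol starts with Psm, Ub, Usp, Capn or Cts, and each gene is represented by its brightest probe set. This gave 65 genes on 99 probe sets, of 4736 genes on 7006 probe sets with 1 symbol. There were 27 genes named Psm, 19 named Ub, 3 named Usp, 7 named Capn and 9 named Cts. The name rule itself uses no measured values, but the members were chosen with earlier results of these data known. Signals set which probe set represents a gene and which genes were tested. A prefix is not a pathway: Ubtf, a transcription factor of RNA polymerase I, is counted with the Ub genes but belongs to no such family.

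The proteasome degrades proteins that carry a chain of ubiquitin. Its barrel, the 20S core, is built of alpha and beta subunits, and the 19S regulator caps the barrel, binds ubiquitin chains and unfolds the protein with a ring of ATPases. Ubiquitin is passed from E1 to E2 to E3 enzymes and removed by deubiquitinases such as the Usp proteins. Calpains are calcium-dependent cysteine proteases of the cytosol that cleave sarcomere proteins, and cathepsins are proteases that work mostly in lysosomes. All these systems take part in protein turnover of muscle.

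The series examined how rat muscle responds to an acute bout of resistance exercise, on 36 one-colour oligonucleotide arrays. Muscle was taken 1 h or 6 h after resisted contractions, and either total RNA or polysomal RNA, the RNA bound to several ribosomes, was hybridised. Exercised muscle gave 2 numbered samples per fraction at 1 h and 4 per fraction at 6 h, with 2 arrays for every number. Muscle whose labels name no contractions gave 4 numbers of polysomal RNA, called the polysomal control, and 2 numbers called the control titled 1hr polysome, whose titles name polysomes while their descriptions do not. The descriptions of both controls give 1 h. Total RNA of uncontracted muscle was not analysed here. All samples share the source label, rat skeletal muscle marked "ta", while strain, sex and age are not given in the sources used here. Whether numbers are separate animals is not stated in the labels, so a p-value here reflects the spread between samples alone, and that spread may be technical.

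Signals are the deposited intensities on a linear scale, and every array had been scaled to nearly the same mean, with trimmed means of 801 to 801.9. A difference between fractions is therefore relative to the other transcripts of each fraction, not an amount per cell. In whole muscle, fewer cells of a type and less RNA per cell cannot be told apart. Of 15 muscle fibre markers 13 were tested, and each of them exceeded the floor on at least 1 array in every group. In total RNA at 6 h, number 3 stood apart: its actin 3′/5′ signal ratio, which rises when the 5′ part of a transcript is poorly represented, was 9.01 and 11.5 on its arrays, against 1.01 to 1.58 on those of the other numbers of that group and 2.54 to 4.48 on the 6 h polysomal arrays. The calls at 6 h, and the values that moved, are therefore also given without number 3 of total RNA. At 1 h the actin ratio was 1.22 to 1.62 in total and 2 to 4.28 in polysomal RNA. Number 3 of 6 h total RNA aside, this ratio was thus higher in polysomal than in total RNA at both times. It ran along with the fraction in every polysomal minus total contrast, and its part in them was not tested. Other samples differed in the GAPDH 3′/5′ ratio. It was 0.0702 and 0.561 on the arrays of 6 h polysomal number 2, against 0.416 to 1.3 on the other 6 h polysomal arrays. In the polysomal control it was 0.0742 and 0.511 for number 1 and 0.0374 and 0.363 for number 2. On the remaining arrays of that control it was 0.482 to 1.19. In the control titled 1hr polysome the arrays of number 2 differed from each other, with actin ratios of 2.57 and 1.07. Their signals were 19000 and 7530 for Psmb4 and 26200 and 9470 for Psmb5, both beta subunits of the proteasome. On the 1 h total arrays these genes read 5650 to 7500 and 10300 to 12900. On the 1 h polysomal arrays they read 15200 to 18200 and 16900 to 23200. Both arrays of this control number were averaged all the same. Signals under the floor of 129.5 were set to it, and print as 130 below.

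Of the 65 genes 62 were measured well enough to be tested, with 27 of 27 Psm, 16 of 19 Ub, 3 of 3 Usp, 7 of 7 Capn and 9 of 9 Cts genes. Ube2m was above the floor on 3 arrays, 1 fewer than required, with a highest signal of 214. Ubxn6 and Ube2d2b were above it on 0 arrays, with highest signals of 106 and 128.

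The clearest differences lay between polysomal and total RNA 6 h after the contractions. Psma4, Psma5, Psmb1, Psmb3 and Psmd11, subunits of the proteasome, and the E2 enzyme Ube2g2 were higher in polysomal RNA, whereas calpains 1 and 6, the proteasome activator Psme4, another E2 enzyme, Ube2h, cathepsin K and the deubiquitinase Usp19 were lower. Of the 62 members 6 were called higher and 6 lower at an adjusted p under 0.05 (limma, Benjamini-Hochberg over all 6707 tested probe sets). Among all 3903 tested genes 4.36% were called higher and 5.02% lower, against 9.68% and 9.68% of the tested members. The families differed in direction. Of the 27 Psm genes 25 lay above 0, with a median log2 difference of 0.54, while all tested genes had a median of -0.14 and 34.3% of them lay above 0. Of the 7 Capn genes 0 lay above 0, with a median of -0.68. That median is the value of Capn9, which like Capn8 was above the floor on only 2 of 8 polysomal arrays.

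**Figure D1:**
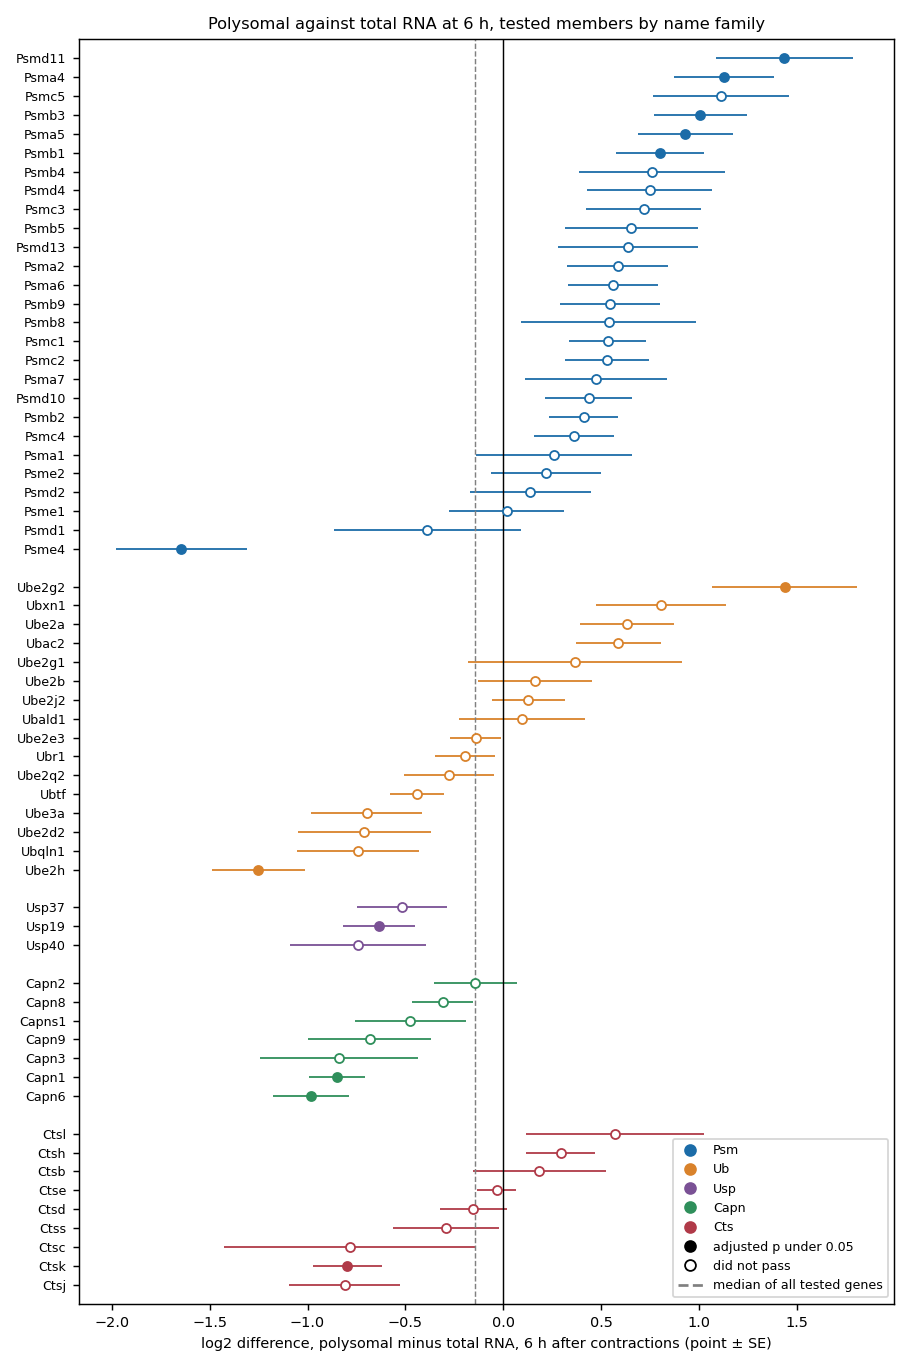
Log2 difference of signal between polysomal and total RNA 6 h after contractions (x axis) for the 62 tested genes, grouped by name family; points are the estimates with bars of ± 1 SE, filled where the adjusted p was under 0.05, and the dashed line is the median of all tested genes. Of the Psm genes 25 of 27 lie to the right of 0 and Psme4 is lowest at -1.64, while 7 of 7 Capn genes lie to the left.

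The count of calls rested in part on single samples. Without number 2 of polysomal RNA there were 5 calls, 0 higher and 5 lower. This sample had the low GAPDH ratio given above, and the part of that ratio was not tested. Leaving out any one of the 8 numbers gave 0 to 10 higher and 5 to 8 lower calls. Without number 3 of total RNA there were 9 higher and 6 lower calls, which held 11 of the 12. The direction of all 12 genes was the same under all 17 alternatives that were run. Capn1, Ube2h, Capn6 and Psme4 passed under all 17, Psma4 under 16, Psmb3, Psmd11 and Ctsk under 15, Ube2g2 under 11, Psma5 under 10, Usp19 under 7 and Psmb1 under 6.

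The alpha and beta subunits of the 20S core all lay on one side. Of the 11 tested, 11 lay above 0 and 4 were called higher, with a median log2 difference of 0.65 and a range of 0.26 to 1.13. Psma4, a subunit of the outer alpha ring, had signals of 1750, 1410, 1190 and 1290 in total RNA (numbers 1 to 4) and of 3000, 4570, 1970 and 3220 in polysomal RNA. All 4 polysomal samples lay above all 4 total samples. The difference was 1.13 on the log2 scale (SE 0.25, adjusted p = 0.0158), or 2.19-fold. Psmb3, a subunit of the inner beta rings, had signals of 1620, 1600, 2320 and 3190 in total RNA and 4620, 5380, 3270 and 3860 in polysomal RNA. The groups were separated by a narrow gap, between number 4 of total and number 3 of polysomal RNA, and the log2 difference was 1.01 (SE 0.24, adjusted p = 0.0192). Psma5, another alpha subunit, overlapped between the fractions. Its signals were 1710, 1810, 2090 and 2690 in total RNA against 4220, 5300, 2560 and 4000 in polysomal RNA, with polysomal number 3 below total number 4 (log2 0.93, SE 0.24, adjusted p = 0.0307). Psmb1, a beta subunit, had signals of 3570, 2790, 5690 and 5630 in total RNA and 6950, 9580, 6770 and 6490 in polysomal RNA, without overlap (log2 0.80, SE 0.22, adjusted p = 0.0386).

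Dimmer probe sets of Psma5 and Psmb3 had the same direction without passing, at 0.83 (adjusted p = 0.176) and 0.62 (adjusted p = 0.0587). The other 7 core subunits did not pass by their brightest probe set. Psma7 and Psmb5 are named here after their values were seen, because dimmer probe sets of both passed. The brightest probe set of Psmb5, the beta subunit with chymotrypsin-like activity, gave a log2 difference of 0.65 (SE 0.34, adjusted p = 0.228), and the others gave 1.51 (adjusted p = 0.0326) and 0.91 (adjusted p = 0.0114). For Psma7 the brightest gave 0.47 (SE 0.36, adjusted p = 0.415) and the other 0.98 (adjusted p = 0.0292). The wide error of the brightest probe sets came with a spread inside the total RNA group. Psma7 had total RNA signals of 2960, 2890, 12000 and 8180 for numbers 1 to 4, and polysomal signals of 6120, 7230, 9470 and 7470. Numbers 1 and 2 of total RNA were thus below every polysomal sample, and number 3 above all of them. Psmb5 showed the same order, with total RNA signals of 8800, 6860, 26500 and 21000 against 20600, 20900, 21100 and 22600. All 6707 tested probe sets were called in either direction at 8.77% in this comparison.

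In the 19S regulator, 5 of 5 tested ATPases lay above 0, with log2 differences of 0.36 to 1.11, but 0 passed. Psmc5 came nearest (log2 1.11, SE 0.35, adjusted p = 0.0598). Of the 6 tested non-ATPase subunits 5 lay above 0 and Psmd11, a subunit of the lid that covers the base of the regulator, was called. Its signals were 6100, 6570, 2720 and 9310 in total RNA and 16800, 14000, 13300 and 17400 in polysomal RNA. The lowest value, by a wide margin, was that of total RNA number 3. The log2 difference was 1.44 (SE 0.35, adjusted p = 0.0229) with that sample and 1.08 (SE 0.30, adjusted p = 0.0402) without it. Psmd1, a large scaffold subunit, lay below 0 by its brightest probe set (log2 -0.39, SE 0.48, adjusted p = 0.626), while its other probe sets gave -0.04 and 0.50. Its low mean came from polysomal number 3, with a signal of 1080 against 6140, 6580 and 6130 in the other polysomal samples. The arrays of that number read 259 and 4480, and the estimate was 0.13 (SE 0.27, adjusted p = 0.792) without the lower one, an alternative chosen after seeing the data.

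The subunits of the immunoproteasome, which replace beta subunits of the core under inflammatory signals, did not pass. Psmb8 had signals of 411, 390, 455 and 200 in total RNA and 786, 453, 385 and 475 in polysomal RNA, with overlap (log2 0.54, SE 0.45, adjusted p = 0.456). Psmb9 gave a log2 difference of 0.54 with an SE of 0.25 (adjusted p = 0.186). Psme1, a subunit of the PA28 activator, stood at 0.02 (SE 0.29, adjusted p = 0.981), and at -0.22 without number 3 of total RNA.

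Psme4 encodes PA200, an activator that can cap the 20S core in place of the 19S regulator. Besides Psmd1 it was the only Psm gene below 0 by the brightest probe set, and the only one called lower. It had signals of 2250, 1240, 909 and 1160 in total RNA and of 371, 702, 329 and 360 in polysomal RNA. Every polysomal sample lay below every total sample, and polysomal number 2 was the highest of its group. The log2 difference was -1.64 (SE 0.34, adjusted p = 0.0102), a 3.12-fold lower signal in polysomal RNA.

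**Figure D2:**
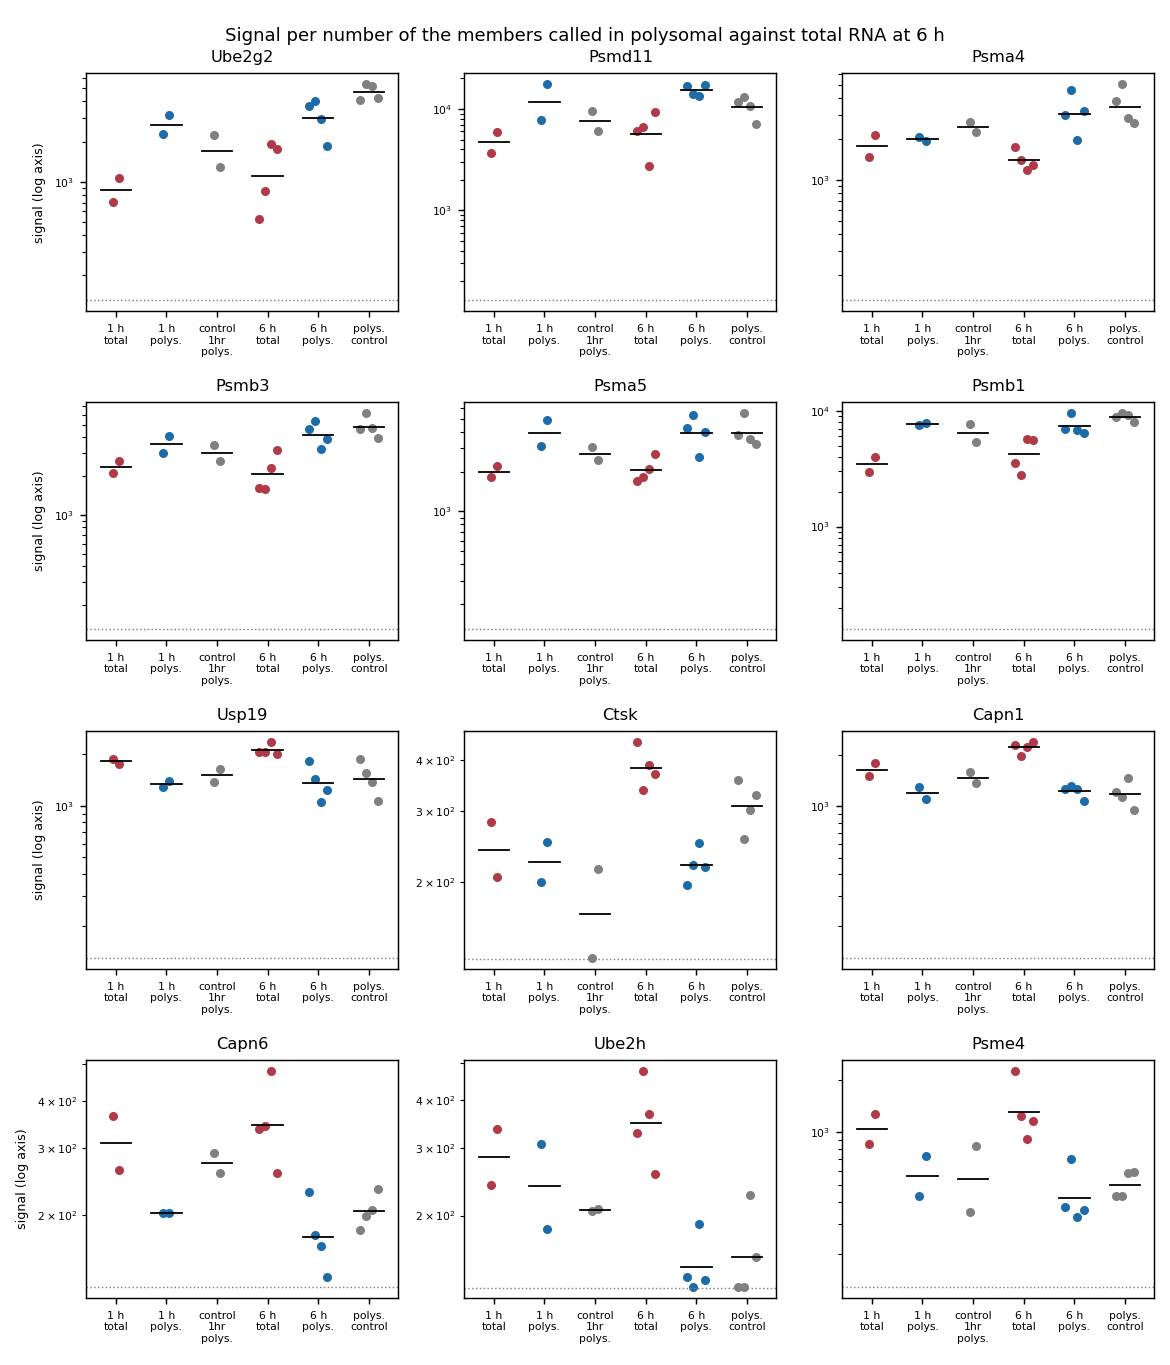
Signal of the 12 called genes in each of the 18 numbered samples (points, mean of 2 arrays on the log2 scale) by group, on a log axis that differs between panels; the bar is the mean of the group on the log2 scale and the dotted line is the floor of 129.5. Total RNA is red, polysomal RNA of exercised muscle blue and the controls grey. In the panel of Capn1 the 6 h total samples at 1970 to 2380 stand above the 6 h polysomal samples at 1080 to 1320.

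Among the ubiquitin genes the E2 enzymes, which carry activated ubiquitin to its target, went in both directions. Of 9 tested E2 genes 1 was called higher and 1 lower. Ube2g2, an E2 of the degradation of proteins from the endoplasmic reticulum, had signals of 525, 858, 1920 and 1770 in total RNA and 3710, 4030, 2970 and 1860 in polysomal RNA. The groups overlapped only between total number 3 and polysomal number 4, and the log2 difference was 1.44 (SE 0.37, adjusted p = 0.0298). Ube2h was dimmer. Its signals were 329, 478, 368 and 257 in total RNA and 138, 130, 190 and 136 in polysomal RNA, where 3 of 8 arrays were above the floor. Without overlap between the groups, the log2 difference was -1.25 (SE 0.24, adjusted p = 0.00666). It was -1.91 with no floor and -1.03 after quantile normalization.

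The 14 other Ub genes did not pass. The ubiquitin ligases among them were Ube3a, at a log2 difference of -0.70 (SE 0.28, adjusted p = 0.13), and Ubr1, at -0.20 (SE 0.15, adjusted p = 0.42). Ubqln1, which shuttles ubiquitinated proteins to the proteasome, stood at -0.74 (SE 0.31, adjusted p = 0.141), and Ubtf, set apart above, at -0.44 (SE 0.14, adjusted p = 0.0623). Ubxn1, an adaptor of the unfolding ATPase Vcp, had total RNA signals of 4170, 3520, 13700 and 9180 for numbers 1 to 4. Its polysomal signals lay between 10600 and 12300, so the total RNA samples were spread on both sides of them (log2 0.81, SE 0.33, adjusted p = 0.137). Ube2g1, a paralog of Ube2g2, was spread in the opposite sense, with total RNA signals of 1010, 1170, 141 and 215 against 440, 647, 675 and 515 in polysomal RNA (log2 0.37, SE 0.55, adjusted p = 0.691). These 6 genes were singled out after their values were seen.

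All 3 Usp genes, which encode deubiquitinases, lay below 0. Usp19, a deubiquitinase with a form anchored in the endoplasmic reticulum, had signals of 2050, 2040, 2350 and 2000 in total RNA and 1810, 1430, 1050 and 1240 in polysomal RNA. The groups did not overlap, and the log2 difference was -0.63 (SE 0.18, adjusted p = 0.044). Without total RNA number 3, the highest of its group, it was -0.58 (SE 0.20) and no longer passed (adjusted p = 0.0729). Usp37 (log2 -0.52, adjusted p = 0.162) and Usp40 (log2 -0.74, adjusted p = 0.188) did not pass.

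The promoters of genes with a called probe set are shown because proteasome genes can be induced together through the antioxidant response element, whose core was searched for as TGACNNNGC on both strands. In the RefSeq promoter table (GRCr8, 250 bases before to 50 after the annotated start) 59 of the 62 tested members had an entry. The motif occurred in 4 of 26 Psm promoters (15.4%), in 13 of 59 member promoters (22%) and in 4038 of 33469 promoters of the whole table (12.1%). Of the 12 genes with a called probe set and an entry, 3 have the motif within the 160 bases before the start. This stretch is shorter than the window of the shares above, and its share over all promoters was not counted. The lines below print these 3 and, as 1 gene without it, Psma4, giving those 160 bases in the direction of transcription, with the motif or its reverse complement in capitals. Psmb5 (chr15:32047380-32047539, minus strand) and Psme4 (chr14:108706483-108706642, plus strand) have 1 match each. Ube2g2 (chr20:11005061-11005220, minus strand) has 3 matches, at 136, 117 and 60 bases before the start, and Psma4 (chr8:64236360-64236519, plus strand) has 0.
Psmb5: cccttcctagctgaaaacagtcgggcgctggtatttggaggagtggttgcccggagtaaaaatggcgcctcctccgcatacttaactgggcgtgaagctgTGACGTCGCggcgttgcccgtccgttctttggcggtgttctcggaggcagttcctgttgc
Psme4: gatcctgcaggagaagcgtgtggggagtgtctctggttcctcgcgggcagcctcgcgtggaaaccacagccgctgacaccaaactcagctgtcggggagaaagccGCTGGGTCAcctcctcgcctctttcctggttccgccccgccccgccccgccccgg
Ube2g2: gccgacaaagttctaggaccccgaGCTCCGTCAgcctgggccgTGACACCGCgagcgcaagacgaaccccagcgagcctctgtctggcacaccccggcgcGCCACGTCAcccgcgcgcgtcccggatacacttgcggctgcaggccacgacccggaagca
Psma4: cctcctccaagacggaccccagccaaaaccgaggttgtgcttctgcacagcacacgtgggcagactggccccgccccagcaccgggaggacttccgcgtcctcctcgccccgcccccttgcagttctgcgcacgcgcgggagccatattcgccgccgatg

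A match of these letters is a description of the sequence and not a bound site. The match in Psmb5 begins 60 bases before the start and the match in Psme4 55 bases before it. The promoters also differed in base composition. Their median GC content was 57.4% for Psm, 68% for Ub, 53.2% for Usp, 53.2% for Capn and 50% for Cts genes, against 51.2% over the table.

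Of the 7 calpain genes 7 lay below 0 and 2 were called lower. Capn1 encodes the large subunit of the calpain that responds to micromolar calcium, and had the smallest adjusted p of all members. Its signals were 2280, 1970, 2230 and 2380 in total RNA and 1260, 1320, 1260 and 1080 in polysomal RNA, tight groups without overlap. The log2 difference was -0.85 (SE 0.14, adjusted p = 0.00413), a 1.80-fold lower signal. Capn6, a calpain that lacks the catalytic cysteine, had signals of 337, 344, 480 and 258 in total RNA and 231, 178, 166 and 138 in polysomal RNA, also without overlap (log2 -0.98, SE 0.19, adjusted p = 0.00865).

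The remaining 5 calpain genes did not pass. Capn3, the muscle calpain that binds titin, had signals of 1870, 1800, 3300 and 3790 in total RNA and 2080, 2410, 510 and 1600 in polysomal RNA, with overlap and a wide error (log2 -0.84, SE 0.40, adjusted p = 0.199). The arrays of polysomal number 3 read 165 and 1570, and without the lower one the estimate was -0.43 (SE 0.26, adjusted p = 0.308). Without number 3 of total RNA it was -0.72 (SE 0.44, adjusted p = 0.333). Capn2, the large subunit of the calpain that needs more calcium, stood at -0.14 (SE 0.21, adjusted p = 0.689), equal to the median of all genes, and turned to 0.01 when arrays were scaled to their 75th percentile. Capns1, the small subunit shared by Capn1 and Capn2, stood at -0.47 (SE 0.28, adjusted p = 0.297). Its total RNA signals of 9930, 9770, 20600 and 19400 again put numbers 1 and 2 apart from 3 and 4. Leaving out number 3 of total RNA keeps number 4, and so part of this spread, in place.

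Of the 9 cathepsin genes 1 was called, and their median log2 difference of -0.15 was close to that of all genes. Ctsk, a cysteine protease known for the breakdown of collagen in bone, had low signals of 444, 337, 390 and 371 in total RNA and 197, 221, 250 and 218 in polysomal RNA. The groups did not overlap (log2 -0.80, SE 0.18, adjusted p = 0.0153). The widely expressed lysosomal proteases did not pass. Ctsd, the aspartic protease, stood at -0.15 (SE 0.17, adjusted p = 0.593), with signals of 4410 to 6220 in total and 3240 to 5830 in polysomal RNA. Ctsb and Ctsl, cysteine proteases, stood at 0.18 (SE 0.34, adjusted p = 0.75) and 0.57 (SE 0.45, adjusted p = 0.433). The total RNA signals of Ctsl were 3130, 2800, 761 and 1520, and number 3 was lowest. Ctss, the cathepsin of antigen-presenting cells, stood at -0.29 (SE 0.27, adjusted p = 0.504).

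Ctsc, which activates serine proteases of granulocytes, had the widest spread of the cathepsins. Its total RNA signals at 6 h were 1130, 1060, 130 and 173, and its polysomal signals 232, 368, 233 and 155. Numbers 1 and 2 of total RNA were far above, and number 3 at the floor, so that the log2 difference of -0.78 had an SE of 0.64 (adjusted p = 0.45). It was -1.33 without number 3 (SE 0.61, adjusted p = 0.178). A dimmer probe set of Ctsc gave -0.71 with all samples and did not pass either (SE 0.22, adjusted p = 0.0622).

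Cathepsins are also made by macrophages, so marker levels stand beside these values. Over the 10 tested of 15 macrophage markers the summed signal per sample ran from 6900 to 13100 in total and from 9200 to 21300 in polysomal RNA at 6 h, and 1 of 10 was at the floor on every total RNA array and 0 on the polysomal arrays. Over 4 tested of 7 neutrophil markers the sums were 559 to 674 and 532 to 1720. Over 13 muscle fibre markers they were 159000 to 386000 and 105000 to 297000. The ranges overlapped in each case, and their part in the results was not tested.

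Counted by overlap alone, 4 members had every polysomal number above every total number at 6 h and 9 had every one below, which is 6.45% and 14.5% of the 62. Among all tested genes these shares were 5.12% and 7.43%, and the shares called were 4.36% and 5.02%. The 9 were the 6 called lower together with Capn9, Ctsj and Ubtf, which did not pass.

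Other genes of the same pathways, beyond the name prefixes, gave calls in both directions. Of 44 tested genes 6 were called, or 13.6%, beside 9.38% of all genes. Of 10 tested ubiquitin ligases and partners 0 were called higher and 1 lower, Cdc34, itself an E2 enzyme (log2 -0.85, SE 0.24, adjusted p = 0.0407). Trim63, the muscle ligase MuRF1, stood at 0.46 (SE 0.54, adjusted p = 0.6). Of 11 ubiquitin-like proteins, deubiquitinases, shuttles and regulators 2 were called higher and 1 lower. Pomp, the chaperone that assembles the 20S core, gave a log2 difference of 1.25 (SE 0.18, adjusted p = 0.00207). Sem1, a small subunit of the 19S lid, gave 1.24 (SE 0.25, adjusted p = 0.00899). Uchl1, a deubiquitinase abundant in nerve, gave -1.01 (SE 0.26, adjusted p = 0.0286).

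Of 9 tested protease inhibitors 0 were called, with 3 at an unadjusted p under 0.05. Cast, which encodes calpastatin, the inhibitor of calpains, stood at -0.47 (SE 0.29, adjusted p = 0.313), and Cst3, an inhibitor of cysteine cathepsins, at 0.48 (SE 0.37, adjusted p = 0.416). Of 11 lysosome and autophagy genes 1 was called higher, the membrane protein Cd63 (log2 1.22, SE 0.35, adjusted p = 0.0436). Of 3 caspases 1 was called lower, the inflammatory caspase Casp1 (log2 -1.01, SE 0.24, adjusted p = 0.0199).

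At 1 h the same contrast was made on other samples, with 2 numbers in each fraction. Limma called 0 members, with 14 at an unadjusted p under 0.05, and 0.333% of all genes were called. By their brightest probe sets, all 12 genes called at 6 h had the same sign at 1 h, where 6 of them had an unadjusted p under 0.05. For Psma5 and Psmb3 this rested on the probe set. Their brightest gave 0.96 and 0.58 at 1 h, and their dimmer ones -0.08 and -0.02. The dimmer probe sets called at 6 h stood at -0.09 and -0.10 in Psmb5 and at 0.13 in Psma7. Over all genes called at 6 h, 336 of 366 (91.8%) kept their sign. The actin ratio also differed between the fractions at both times, as given above, and its part in this was not tested. Psmb1 came nearest to a call. Its signals were 2990 and 3960 in total RNA and 7580 and 7920 in polysomal RNA (log2 1.17, SE 0.32, adjusted p = 0.101). Ubxn1 had signals of 4990 and 5160 against 17900 and 13600 (log2 1.62, SE 0.47, adjusted p = 0.115), and Ube2g2 had 710 and 1070 against 2270 and 3150 (log2 1.62, SE 0.53, adjusted p = 0.151). In each of these genes both polysomal samples lay above both total samples.

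Ctsc was at the floor on every polysomal array at 1 h. Its signals were 1130 and 1010 in total RNA and 130 and 130 in polysomal RNA, at least 8.27-fold lower, the mean of the total samples over the floor, and the contrast did not pass (adjusted p = 0.125). That size depended on the probe set. The brightest gave a log2 difference of -3.05 at 1 h, and a dimmer one of Ctsc gave -0.91. Usp37 was also at the floor on all 4 polysomal arrays, against 179 and 265 in total RNA (1.68-fold lower, adjusted p = 0.277). Only 3 of 4 total RNA arrays were above the floor for Usp37, so that fold is not a lower bound. Capn1 and Capn6 stood at -0.46 (SE 0.20, adjusted p = 0.292) and -0.61 (SE 0.28, adjusted p = 0.296). Of the 7 Capn genes 2, Capn2 and Capns1, lay above 0 at 1 h by their brightest probe sets. The median log2 difference of the 7 was -0.19. Dimmer probe sets of Capns1 gave -1.05 and -0.53 at 1 h, against 0.11 for its brightest. Those of Capn3 gave -0.76 and -1.35, against -0.17, and that of Capn8 gave -0.08. Of the Psm genes 23 of 27 lay above 0 by their brightest probe sets, with a median log2 difference of 0.30. Most of their dimmer probe sets lay below 0 at 1 h, so this direction depended on the probe set. Examples below 0 were Psmc2 at -1.13 and Psma2 at -0.55 and -0.17. Dimmer ones of Psme1 and Psmd4 lay above, at 0.50 and 0.45, and another of Psmd4 at -0.10. The change of the fraction difference from 1 h to 6 h was itself tested, and 0 members were called (3 at an unadjusted p under 0.05, 0% of all genes called). The estimates with the smallest p were Ube2h at -0.99 (SE 0.41), Psma4 at 0.96 (SE 0.44) and Ctsk at -0.69 (SE 0.31), each with an adjusted p of 0.849.

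**Figure D3:**
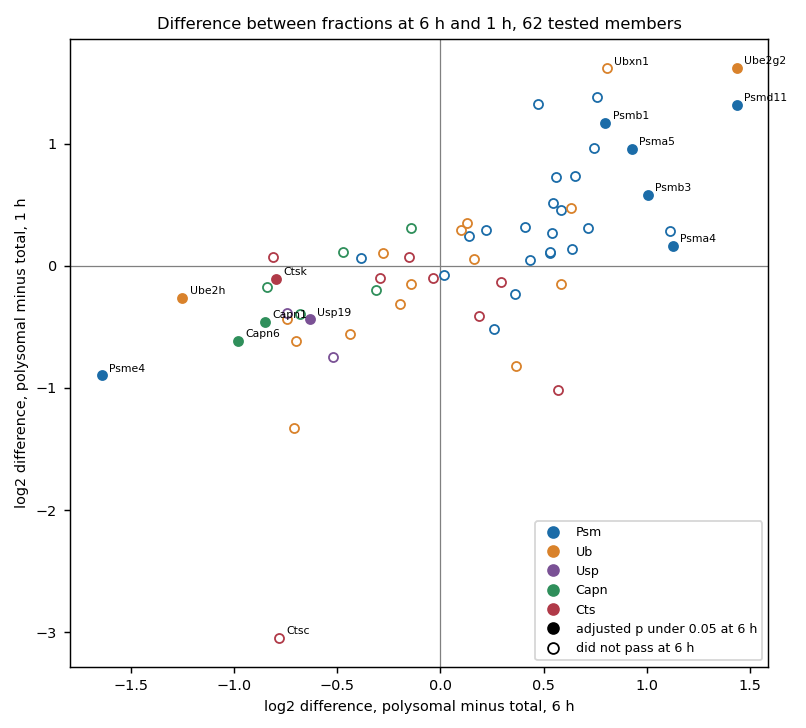
Log2 difference between polysomal and total RNA at 6 h (x axis) and at 1 h (y axis) for the 62 tested genes, coloured by name family; filled points were called at 6 h, and the 2 axes rest on different samples. The 12 filled points lie where both differences have the same sign, and Ctsc is lowest at -3.05 on the y axis, where its polysomal arrays were at the floor.

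Polysomal RNA of contracted muscle was compared with uncontracted muscle to see whether contractions changed these transcripts on ribosomes. Neither time gave a call. At 6 h against the polysomal control limma called 0 members (3 at an unadjusted p under 0.05), and 0.384% of all genes were called. At 1 h against the control titled 1hr polysome it called 0 (2 at an unadjusted p under 0.05), and 0% of all genes. The 6 h contrast shares its polysomal samples with the contrast against total RNA.

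The smallest p at 6 h belonged to Ctsk and Ctsd. Ctsk had signals of 358, 256, 301 and 328 in the polysomal control and, as given above, 197 to 250 in 6 h polysomal RNA. Without overlap, its log2 difference was -0.48 (SE 0.18, adjusted p = 0.546). Ctsd had control signals of 6440, 5820, 7330 and 5680 against 3240, 4880, 4740 and 5830 with overlap (log2 -0.46, SE 0.17, adjusted p = 0.585). Among the Psm genes Psme2, a subunit of the PA28 activator, stood at -0.64 (SE 0.28, adjusted p = 0.781). Its signals were 1770, 1570, 835 and 672 in the control and 885, 993, 596 and 507 in 6 h polysomal RNA, lower in 4 of 4 equal numbers. With the number as a replicate block the SE was 0.24, and it still did not pass (adjusted p = 0.496).

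Of the Psm genes 25 of 27 lay below 0 at 6 h, with 0 called and a median of -0.20, against -0.04 for all genes. Without polysomal number 3, 17 of 27 were below 0 and the median was -0.10. Against the control titled 1hr polysome instead, 22 of 27 were above 0 and the median was 0.27, so the direction depended on which control was used. Both contrasts share the 6 h polysomal samples. The polysomal control itself lay above the control titled 1hr polysome in 24 of 27 Psm genes, with a median log2 difference of 0.43, but 0 members were called (7 at an unadjusted p under 0.05, 0% of all genes). Beside this, 10 of 10 fibroblast markers lay above 0 (median 0.84) and 0 of 13 muscle fibre markers did (median -0.66), and their part in it was not tested. In that contrast Ctsk stood at 0.88 (SE 0.22, adjusted p = 0.346), with signals of 130 and 216 in the control titled 1hr polysome, and Ube2g2 at 1.47 (SE 0.46, adjusted p = 0.686).

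**Figure D4:**
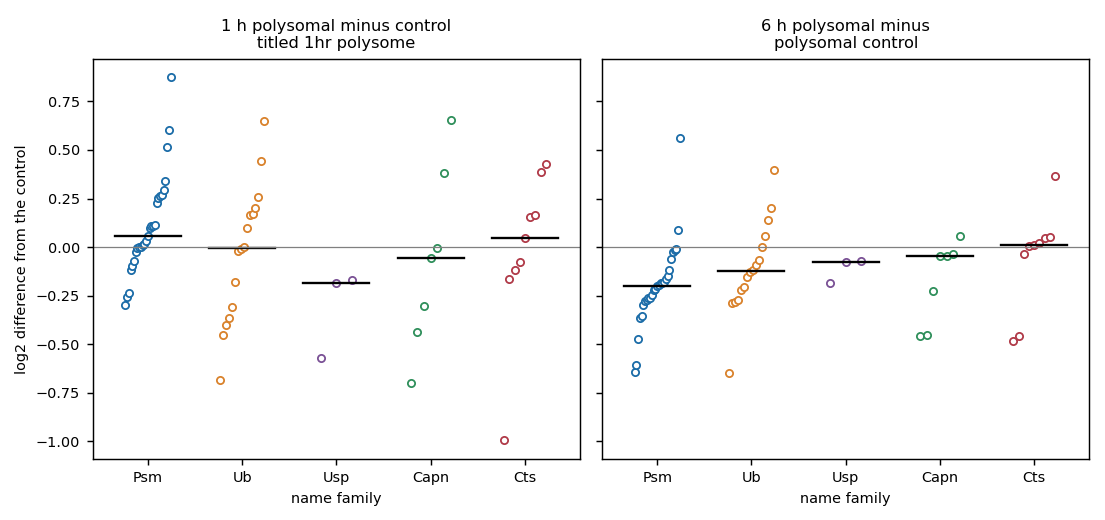
Log2 difference of polysomal RNA of exercised muscle from its control at 1 h (left) and 6 h (right) for the 62 tested genes by name family; each point is a gene and the bar is the median of its family. The 6 h median of the Psm genes is -0.20, and 0 of the points on either side passed the test.

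At 1 h the Psm genes had a median of 0.06 against the control titled 1hr polysome, with 17 of 27 above 0. Without the array of control number 2 with the lower actin ratio the median was -0.02, with 13 of 27 above 0. Without number 2 of 1 h polysomal RNA it was -0.04, with 10 of 27 above 0, so the side of the median rested on single samples. Among the members Capn2 and Ubac2 had an unadjusted p under 0.05. Capn2 had signals of 845 and 1370 against 630 and 745 in the control (log2 0.65, SE 0.30, adjusted p = 1). Ubac2, a protein of the endoplasmic reticulum with a ubiquitin-binding domain, had 520 and 698 against 1040 and 903 (log2 -0.69, SE 0.31, adjusted p = 1). Larger estimates had larger errors, as in Ctsc at -0.99 (SE 0.91) and Psmd13, a 19S subunit, at 0.87 (SE 0.51), both with an adjusted p of 1. The polysomal response at 6 h was tested against that at 1 h, with 0 members and 0% of all genes called (2 members at an unadjusted p under 0.05).

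Total RNA at 1 h was set against the same control, since its description names no polysomes. If its title is right, this contrast differs in both fraction and contractions, which cannot be told apart here. Limma called 0 members (6 at an unadjusted p under 0.05), and 0.0512% of all genes. Ubxn1, at 4990 and 5160 in total RNA, had 17800 and 11900 in this control (log2 -1.52, SE 0.47, adjusted p = 0.243) and 17900 and 13600 in 1 h polysomal RNA. Psmb1 stood at -0.91 (SE 0.32, adjusted p = 0.295), and 20 of 27 Psm genes were below 0. Ctsc was higher in total RNA, 1130 and 1010 against 185 and 359 (log2 2.05, SE 0.91, adjusted p = 0.419). The arrays of control number 2 read 40.3, under the floor, and 995, and without the latter array the difference was 2.79 (SE 0.90, adjusted p = 0.0995).

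Between the times, limma called 0 members in either fraction. In total RNA 6 h minus 1 h there were 3 members at an unadjusted p under 0.05, and 0.0256% of all genes were called. Ctsk had 282 and 206 at 1 h and 444, 337, 390 and 371 at 6 h (log2 0.67, SE 0.22, adjusted p = 0.53), and Capn1 had 1500 and 1780 against the 1970 to 2380 given above (log2 0.43, SE 0.18, adjusted p = 0.597). Neither overlapped between the times, and both missed the threshold. The remaining member, Ctsl, was lower at 6 h and overlapped between the times. It had 2880 and 5750 at 1 h against 3130, 2800, 761 and 1520 at 6 h (log2 -1.19, SE 0.56, adjusted p = 0.644). In polysomal RNA there was 1 member at an unadjusted p under 0.05, Ube2h at -0.70 (SE 0.29, adjusted p = 0.838), and 0% of all genes were called.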

How the data were processed

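The 36 arrays of rat muscle RNA fall into 6 groups by title. Values are the intensity signals of the authors' deposited table, on a linear scale. Software, background correction and summary method are not given in the sources used here, and the deposited scaling was kept. After 59 control probe sets were left out, a floor was set at the 40th percentile of the table (129.5), log2 was taken, and tests covered the 6707 probe sets that exceeded this floor on 4 or more arrays. The mean of both arrays of a number served as 1 replicate. Their correlation over probe sets ran from 0.897 to 0.981, against 0.775 to 0.975 for other pairs of arrays.

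Gene symbols came from the platform annotation, updated through Entrez identifiers. A single symbol was given for 7006 of 8740 probe sets, which alone were named, while 308 carried several and 1426 carried none. No build was named, so GRCr8 served for names and promoter sequences alone.

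Contrasts were taken from 1 limma fit of all 6 groups (limma 3.58.1, R 4.3.3 with lmFit, contrasts.fit and eBayes), without covariates, two-sided, with 12 residual degrees of freedom, Benjamini-Hochberg adjustment over all tested probe sets and a threshold of 0.05. The code was tested on simulated data. The number of arrays limits the precision.

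Equal numbers deviated together in 6 h polysomal RNA and the polysomal control (correlations of 0.431 to 0.538 over the 4 pairs). The reported values of that contrast came from the unpaired fit all the same, so its errors and p-values leave this pairing out. In 6 h total and polysomal RNA the correlations were 0.0726 to 0.248. A fit with the number as a block was run beside the unpaired one.

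Named genes were the called members, up to 10 per direction, the 3 smallest p of a family without a call, and a list of well known members. Other members given with values were singled out after their values were seen. The members, lists and tests were chosen with earlier results of these data known.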

Additional observations from a re-analysis of the deposited data

Results flagged for a closer look

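In 5 of 90 groups of 4 samples, over 30 named genes, the gap of one sample to the nearest other was large against the range of its group (Dixon's ratio at the 95% level), where chance gives about 4.5. Capn9, a calpain of the digestive tract, had a ratio of 0.834 in total RNA at 6 h, where number 3 had a signal of 398, and a ratio of 1 in polysomal RNA, where number 3 had 164 and the others lay at the floor. Psme4 had a ratio of 0.841 in 6 h polysomal RNA through number 2, at a signal of 702. Ube2h had 0.843 in 6 h polysomal RNA through number 3, at 190. Usp19 had 0.847 in 6 h total RNA through number 3, at 2350. Of the 5, 2 thus fell on number 3 of 6 h total RNA, whose actin 3′/5′ ratio was 9.01 to 11.5, and the part of that ratio in them was not tested.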

How the results depend on the processing

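The alternatives were the floor (20th percentile or none), no filter on dim probe sets, quantile normalization or 75th percentile scaling, arrays as samples with the number as a random block, the mean of all probe sets of a gene, the other control, each number left out, 1 array of the control titled 1hr polysome or (chosen after seeing the data) of 6 h polysomal number 3 left out, and the number as a replicate block. A gene kept its probe set. The 12 calls between fractions at 6 h became 5 to 18 when 1 number was left out; the 5, with 0 higher, came without polysomal number 2. With the replicate block there were 12 calls, 11 of them shared, and the block changed no count of 0 elsewhere; contrasts across the 1 h and 6 h sets could not be fitted with it. With no filter 8 members were called, and with arrays as samples 18. At 1 h the fraction contrast gave 6 calls (5 higher, 1 lower) with arrays as samples. Against the control titled 1hr polysome, 1 h total RNA gave 1 member lower with arrays as samples, and 1 without the array. The cause of these changes was not tested. The other contrasts stayed at 0 calls. Of 3786 values of named genes under the alternatives, 3540 kept their direction, and 0 called values reversed.

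Signals near the floor, such as those of Ube2h, Capn6 and Ctsk, limit how low a difference can be measured. With 2 numbers per group, the 1 h contrasts had larger errors. At 6 h all genes had a median log2 difference of -0.14 between fractions, and of -0.02 after quantile normalization.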
